A study of Mus musculus with 4 samples.

Results

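Oral epithelium was described here in 120 spatial spots of mouse oral mucosa, 60 from an unwounded section and 60 from a section taken on postoperative day 4. The series holds 3530 tissue spots in 4 sections made with 10x Visium, an array on which each spot captures polyadenylated RNA from a small region of a frozen section and can cover several cells of different types. The mice were wildtype in all groups and the tissue was flash-frozen, and there was 1 section of unwounded and 1 of postoperative day 4 (POD4) oral mucosa, beside 2 facial skin sections that were not used. Age, strain, wound type and the place of the wound in the section are not given in the labels. With 1 section per group there is no replicate, so the values compare 2 sections, carry counting error only and have no test.

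The members were chosen by their keratin content, so the selection used measured values. Spots with at least 1000 UMIs (unique molecular identifiers, each a counted RNA molecule) were ranked by the share of UMIs in Krt13, Krt4, Krt5 and Krt14, and the 60 highest of each section were taken. The unwounded section had 1288 tissue spots, of which 523 reached 1000 UMIs, and the day 4 section had 430, of which 365 did. The score of the last unwounded member was 10.53%, with 10.53% and 10.45% in the next 2 spots outside. At day 4 the last member had 4.23%, with 4.17% and 4.13% just outside. The 4 keratins took a median of 12.9% of UMIs in the unwounded members and 7.91% in the day 4 members, and 18 day 4 spots reached the score of the last unwounded member. These values chose the spots and support nothing further.

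Oral epithelium is a stratified squamous tissue that renews from a basal layer. Basal cells carry keratins 5 and 14 and are anchored to the basement membrane by hemidesmosomes, while cells moving up switch to keratins 13 and 4 and load their envelope with small proteins encoded side by side in the epidermal differentiation complex. After injury, keratinocytes at the margin are known to take on keratins 6, 16 and 17 and to release the calcium-binding alarmins S100A8 and S100A9.

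The levels of the 4 selecting keratins describe the choice and are no check of it. Krt13 was present in all 60 unwounded spots at 563 to 1254 UMIs per 10000 UMIs (median 809) and in all 60 day 4 spots at 139 to 1039 (median 458). Krt4 had medians of 447 and 259 per 10000 UMIs. Krt13 and Krt4 together outnumbered Krt5 and Krt14 in 60 unwounded and 56 day 4 spots, a balance that the ranking itself favours. The share of Krt5 and Krt14 among the 4 keratins had a median of 2.33% in unwounded spots (highest 7.58%) and 6.42% in day 4 spots (highest 62.4%). Of markers that the rule did not use, Lor and Sprr3, envelope proteins of squamous epithelium, had log2 ratios of 3.03 and 2.50 over the other spots unwounded and 4.35 and 3.75 at day 4. Basal keratinocyte genes outside the rule did not stand out unwounded, with a median of 0.0542% of UMIs in the members and 0.0548% in the other spots. At day 4 these medians were 0.0844% and 0.0618%. Hemidesmosome and basement membrane genes had medians of 0.0527% and 0.0832% unwounded and 0.108% and 0.0932% at day 4. Of 12 hair follicle markers, 9 were at 0 in the unwounded set and 6 at day 4, including Krt71 and Krt73 in both.

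**Figure D1:**
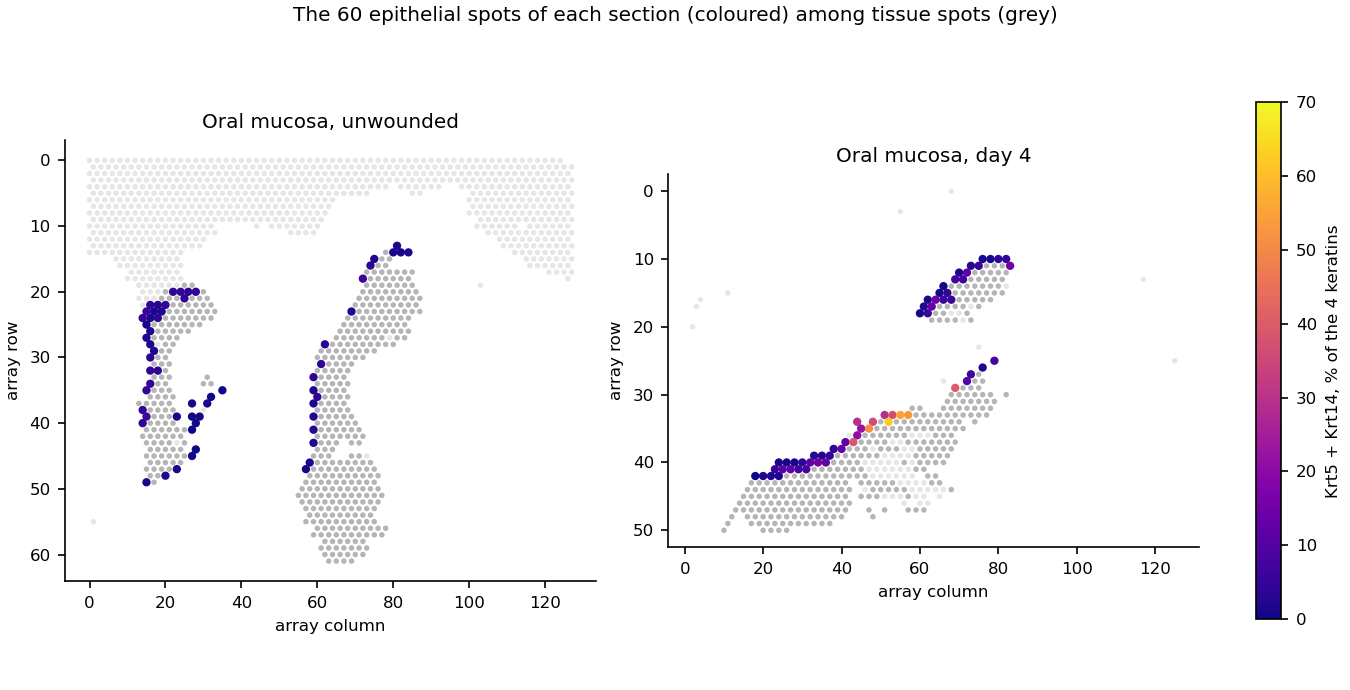
Array positions of tissue spots in the unwounded (left) and day 4 (right) oral mucosa section, by array column and row. Grey spots are other tissue spots (lighter grey, under 1000 UMIs) and coloured spots are the 60 epithelial members, coloured by the percent of Krt5 and Krt14 among the 4 keratins, which reached 7.58% in the unwounded and 62.4% in the day 4 section.

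In 52 unwounded and 47 day 4 members a neighbouring position held no spot with at least 1000 UMIs. Such a position can be tissue with fewer UMIs as well as a tissue edge. The members formed 26 patches of touching spots in the unwounded section, the largest of 15 spots, and 8 patches at day 4, of which the 4 largest had 28, 11, 11 and 5 spots. The 60 spots held 813776 UMIs in the unwounded section (11.2% of the section) and 861632 at day 4 (28.7%), with medians of 8994 and 10161 UMIs per spot. Between the sections 136 spot barcodes were shared, 2 of them between both sets of members. The sections differed in sex-linked genes: Xist had 40 UMIs in the day 4 members and 0 in the unwounded ones, while Ddx3y had 0 and 23 and Eif2s3y 0 and 33, so the animal's sex and the day cannot be told apart. Gm42418, Malat1 and Lars2, transcripts whose level often follows RNA quality, were 4.11-fold, 2.58-fold and 5.10-fold lower at day 4, and their part in the other differences was not tested.

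UMIs were summed over the 60 spots of each section and expressed per 1000000 UMIs (CPM), and a gene was counted as higher or lower from a 2-fold ratio, provided the members of the sections together held at least 50 of its UMIs. Of 4237 genes measured, 373 were higher at day 4 (8.8%) and 116 were lower (2.74%), with a median log2 ratio of 0.21 over all of them. These shares are the background for the counts of list members given below. Medians of gene lists and the median over all genes were taken after adding 10 CPM to both sets, and ratios of single genes without it. Scaling by TMM, which assumes that most genes do not differ, moved every log2 ratio by -0.32 and gave 188 higher and 258 lower genes. When both sets were held to the score of the last unwounded member, 60 unwounded spots against 18 at day 4, 77 genes were higher and 146 lower. In summed spots fewer cells of a type and less RNA per cell cannot be told apart. Genes were ranked with 10 CPM added by a rule that asked for 100 UMIs over both sets. It also asked for the same sign in every pairing of spots above or below the median array row. The rule left out the selecting keratins, mitochondrial, haemoglobin, Gm and Rik genes, Xist and Y-linked genes. The highest genes left included S100a9, S100a8, Muc5b, Postn, Chil1, Col1a1, Bpifb2, Gp2, Krt17, Col3a1, Urah, Eln, Col1a2 and Tmsb10. The 15 lowest were Mt3, Krt24, Serpinb3c, Alox15, Slurp2, Lyg1, Slurp1, Krt10, Lars2, Nmu, Crispld2, Dnase1l2, Acp7, Lce3d and Lce1j.

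The sequences just upstream of 4 genes are shown because S100a9 ranked highest by that rule, Sprr2d and Rptn lie in the same gene complex on chromosome 3 but had opposite ratios over all members, and Krt24 had the lowest ratio among the measured keratins. They are RefSeq promoters of GRCm38.p6, the 250 bases before the transcript start, written 5′ to 3′ on the gene's strand. S100a9 lies at chr3:90695722-90695971 on the minus strand, Sprr2d at chr3:92338890-92339139 and Rptn at chr3:93393449-93393698 on the plus strand, and Krt24 at chr11:99285263-99285512 on the minus strand. Capitals mark TGANTCA, the letters bound by AP-1, and TATAAA, a common form of the TATA box, searched on both strands.
S100a9: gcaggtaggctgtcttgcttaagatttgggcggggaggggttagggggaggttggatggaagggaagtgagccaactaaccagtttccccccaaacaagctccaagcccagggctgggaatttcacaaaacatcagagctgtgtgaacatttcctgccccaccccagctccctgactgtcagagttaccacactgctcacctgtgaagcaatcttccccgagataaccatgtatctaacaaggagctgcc
Sprr2d: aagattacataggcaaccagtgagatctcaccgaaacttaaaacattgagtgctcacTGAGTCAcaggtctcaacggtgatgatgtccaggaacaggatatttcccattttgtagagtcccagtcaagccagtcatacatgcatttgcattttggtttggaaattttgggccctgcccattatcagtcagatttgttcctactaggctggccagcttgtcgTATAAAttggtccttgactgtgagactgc
Rptn: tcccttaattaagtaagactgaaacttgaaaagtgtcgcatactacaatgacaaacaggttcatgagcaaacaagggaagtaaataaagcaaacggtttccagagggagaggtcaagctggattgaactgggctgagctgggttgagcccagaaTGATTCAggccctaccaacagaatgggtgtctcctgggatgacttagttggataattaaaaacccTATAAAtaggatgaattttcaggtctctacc
Krt24: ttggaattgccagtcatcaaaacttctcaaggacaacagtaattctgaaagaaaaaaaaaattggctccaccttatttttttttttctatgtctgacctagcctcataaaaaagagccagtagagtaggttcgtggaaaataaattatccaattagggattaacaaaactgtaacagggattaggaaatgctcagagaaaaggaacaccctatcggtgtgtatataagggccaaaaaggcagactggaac
Sprr2d and Rptn each held 1 match to TGANTCA and 1 to TATAAA, and the S100a9 and Krt24 windows held neither of these exact strings. Other forms, such as the tatataag near the end of the Krt24 window, were not searched for. Over all 32851 promoters of the table, 6.75% held TGANTCA and 12.4% held TATAAA in this window. Of the 15 genes with the highest ratios 10 had a promoter in the table, with 0 holding TGANTCA and 3 holding TATAAA, and of the 15 lowest 12 had one, with 1 and 3. A match describes letters in a window and not a bound site.

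Alarmins and antimicrobial genes were led at day 4 by the paired S100 proteins. S100a8 reached at most 8.30 UMIs per 10000 UMIs in an unwounded spot, with a median of 0, and had a median of 1.80 and a highest value of 395 in the day 4 spots. Summed, it stood at 11.1 CPM unwounded and 2079 CPM at day 4, a log2 ratio of 7.55 (95% interval 6.63 to 8.69). S100a9 went from 6.14 to 1956 CPM, a log2 ratio of 8.31 (7.09 to 9.94). The sets overlapped, since 17 of the 60 day 4 spots for S100a8 and 27 for S100a9 lay above the highest unwounded spot while others held none. Among the 11 list members measured, 5 were higher and 0 lower, with a list median of 0.81. The other 3 were Chil1, a chitinase-like lectin, at 184.5 against 6.14 CPM, the beta-defensin Defb3 at 77.8 against 4.92 CPM, and Wfdc18, a whey acidic protein family member, at 68.5 against 4.92 CPM. Slpi, a secreted protease inhibitor of saliva and mucosa, was abundant in both, at 6015 CPM at day 4 and 8324 CPM unwounded. The beta-defensin Defb4 stood at 1243 CPM at day 4 and 1638 CPM unwounded.

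S100a8 and S100a9 are also made in bulk by neutrophils, and the day 4 members held little more of them than the other day 4 spots, by a log2 ratio of 0.35 for S100a8 and 0.05 for S100a9. The 8 other neutrophil markers had few UMIs in the members. Of the 8 markers beside the S100 pair, Mmp8 was at 0 in both sets, Csf3r had 4 and 0 UMIs, Retnlg 6 and 0, Clec4d 10 and 0 and Trem1 2 and 0 at day 4 and unwounded, while Cxcr2 had 3 and 4, G0s2 3 and 1 and Il1r2 13 and 24. In the other day 4 spots Csf3r had 48 and Retnlg 75 UMIs, and the part of neutrophils in the S100 values was not tested. The summed share of these 8 markers ran from 0 to 0.0257% per spot at day 4 and from 0 to 0.0228% unwounded, with medians of 0. Across the 60 day 4 spots S100a8 had a Spearman correlation of 0.735 with Krt17 and 0.104 with those 8 markers, a description of spots that share 1 library and its depth. Many spots tie at 0 for the 8 markers, which keeps their correlation low, so these values cannot be set against each other. After thinning every spot to 1000 UMIs, S100a8 was seen in 21 of 60 day 4 spots (35%) and 0 of 60 unwounded spots, against 71.7% and 11.7% unthinned. In the other spots it was seen in 38.4% at day 4 and 2.59% unwounded after thinning.

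**Figure D2:**
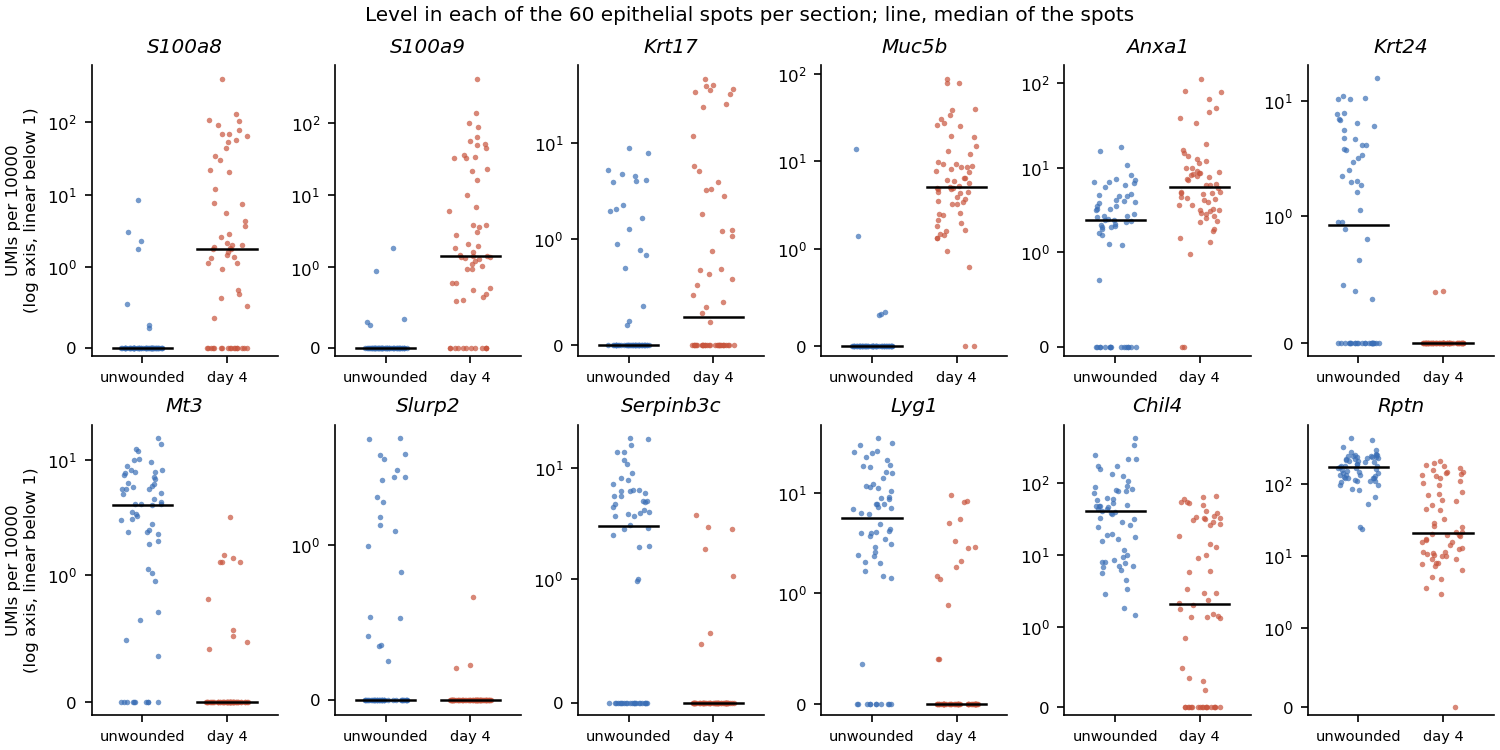
UMIs per 10000 UMIs of 12 genes in each of the 60 epithelial spots of the unwounded (blue) and day 4 (red) section, on axes that are logarithmic above 1 and linear below, with a line at the median spot. S100a8 reaches 395 at day 4 with a median of 1.80, while Rptn has medians of 171 unwounded and 20.9 at day 4, and no gene separates the sections completely.

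Keratins of the wound response differed in how far they went. Krt17, a keratin of stressed and migrating keratinocytes, had an unwounded median of 0 and a highest spot of 8.81 UMIs per 10000 UMIs, and a day 4 median of 0.261 and a highest spot of 46.9. Its sum was 71.3 CPM unwounded and 731 CPM at day 4, 10.3-fold higher (log2 3.36, 2.97 to 3.77). Krt16, its frequent partner, stood at 1261 and 2639 CPM (log2 1.07, 0.96 to 1.17), but its median spot was lower at day 4, 1.42 against 3.28 per 10000 UMIs. Krt6a and Krt6b, constitutive in oral epithelium, stood at 6483 and 3980 CPM at day 4 against 6202 and 4891 CPM unwounded. Krt14 was used by the selection and is a description only, at 5852 CPM at day 4 and 1728 CPM unwounded. With both sets at the same score the direction turned for Krt17 (log2 -0.54), Krt16 (-2.22), Krt14 (-0.15), Krt5 (-0.56) and Krt6a (-1.30), and Krt6b stood at -1.68, so Krt6a and Krt6b were then past 2-fold lower. That limit also changes which day 4 spots are compared. It kept 0 of the 5 spots of a patch rich in Krt5 and Krt14 that is described below. Across the 60 day 4 spots the score had a Spearman correlation of -0.64 with the share of Krt5 and Krt14.

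The genes that anchor basal cells were higher as a group. Of 11 measured hemidesmosome and basement membrane genes 7 were higher and 0 lower, with a median log2 ratio of 0.99. Lama3, a laminin alpha chain of the epidermal basement membrane, stood at 53.4 against 6.14 CPM, and Lamb3, a laminin beta chain, at 63.8 against 33.2 CPM, below 2-fold. Itga6, the integrin subunit that binds laminin in hemidesmosomes, was 2.79-fold higher, its partner Itgb4 2.11-fold, the hemidesmosomal collagen Col17a1 2.07-fold and Itga3 2.90-fold. Plec and Dst, which tie hemidesmosomes to keratin filaments, had ratios of 1.05 and 1.15. At the same score in both sets the median of this list was -0.04, and Lama3 (log2 0.75) and Itga6 (0.52) fell short of 2-fold.

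Genes of adhesion and movement over matrix showed a like pattern. Of 9 measured, 6 were higher and 0 lower, with a median log2 ratio of 1.14. Fn1, fibronectin, stood at 174 against 25.8 CPM and Tnc, tenascin C, at 73.1 against 13.5 CPM. The integrin subunit Itgb1 was 2.92-fold higher, and the actin-binding Actn1, Flna and Myh9, non-muscle myosin, were 2.58-fold, 2.33-fold and 2.31-fold higher. Anxa1, a lipid-binding protein of squamous epithelium, had medians of 2.42 and 5.94 per 10000 UMIs and stood at 338 and 1631 CPM, 4.83-fold higher. With both sets at the same score its log2 ratio was 0.31, and the list's median was 0.13.

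Basal keratinocyte markers split. Of 10 measured, 4 were higher and 2 lower, with a median of 0.52. Krt15, a keratin of resting basal cells, was 2.68-fold lower (39.5 against 105.7 CPM) and the chemokine Cxcl14 was 15.9-fold lower (6.96 against 111 CPM). Trp63, the transcription factor that maintains the basal state, stood at 107 CPM at day 4 and 90.9 CPM unwounded. Of 12 measured cell division genes 2 were higher, where 8.8% of all genes were higher. These were Cdk1 (2.15-fold) and Rrm2, a subunit of ribonucleotide reductase (4.53-fold). The proliferation marker Mki67 stood at 59.2 CPM at day 4 and 56.5 CPM unwounded, and Top2a at 58.0 CPM at day 4 and 60.2 CPM unwounded.

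Fibroblast collagens were also higher in the day 4 sum, but were spread differently over the day 4 spots. In the patch described below, fibroblast markers stood at 977 CPM, against 3706 CPM in the other day 4 members. Hemidesmosome and basement membrane genes stood at 2760 CPM there, against 928 CPM. Of 10 measured fibroblast markers 8 were higher, with a median of 2.45, and all 12 listed were detected in both sets, Pdgfra at 10 and 7 UMIs. Their summed share of a spot's UMIs ran from 0.0458% to 3.21% at day 4 (median 0.205%) and from 0 to 0.301% unwounded (median 0.0598%). At day 4 and unwounded, in that order, Col1a1 stood at 628 and 50.4 CPM, Col3a1 at 758 and 102 CPM and Postn, periostin, at 243 and 7.37 CPM. Among spots with under 0.2% of their UMIs in these markers, 29 at day 4 and 56 unwounded, the log2 ratios were 1.97 for Col1a1, 3.05 for Postn, 0.84 for Col3a1, 0.96 for Col1a2 and 0.66 for Eln, elastin, so Col3a1, Col1a2 and Eln fell short of 2-fold. That limit selects on these markers themselves. In those spots 185 genes were higher and 134 lower, and the log2 ratio of Itga6 was 1.37. With both sets at the same score the log2 ratios were 1.84 for Col1a1, 2.81 for Postn, 1.38 for Col3a1 and 0.92 for Col1a2. The part of fibroblasts in the other differences was not tested.

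Salivary gland transcripts were also higher at day 4. Muc5b, a gel-forming salivary mucin, had 12 UMIs unwounded and 732 at day 4, 14.7 and 850 CPM, with a highest spot of 13.6 and 87.5 per 10000 UMIs. Of the 12 salivary markers 5 were at 0 unwounded and 4 at day 4, Prol1, Pip and Lpo in both, and the summed share ran from 0 to 0.204% unwounded and from 0 to 1.13% at day 4. Muc5b was higher still in the other spots, where its log2 ratio was 7.92, and the part of gland tissue in it was not tested. Other tissues also differed in summed marker CPM: mast cell markers stood at 280 at day 4 against 17.2 unwounded, macrophage markers at 571 against 134 and skeletal muscle markers at 5483 against 7597. The mast cell share was uneven at day 4, with a median spot of 0.0022% and a highest of 1.98%. Cma1, a mast cell protease, had UMIs in 18 of 60 day 4 spots. Its log2 ratio of 3.90 became 0.49 at the same score and -0.31 among spots with under 0.2% fibroblast markers. Gp2, a glycoprotein of secretory granules, rested on 2 unwounded UMIs against 98 (log2 5.53, 3.64 to 8.60), and Bpifb2, a secreted lipid-binding protein of glands, on 4 against 121.

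Among the lower genes, several keratinocyte products had few or no UMIs in the day 4 members. Krt24, a keratin of differentiated keratinocytes, was detected in 36 of 60 unwounded spots (highest 15.7 UMIs per 10000 UMIs) and 2 of 60 day 4 spots (highest 0.41), and had 179 and 2 UMIs, a log2 ratio of -6.57 (-9.62 to -4.69). Krt76, a keratin of the hard palate and gingiva, had 29 and 0 UMIs, at least 10.2-fold lower against a floor of 3 UMIs. Tfap2b, a transcription factor of the AP-2 family, had 23 and 0 UMIs, at least 8.12-fold lower. Krt10, the keratin of cornifying layers, was 9.61-fold lower (457 and 47.6 CPM), but from the unwounded spots above the median array row alone its log2 ratio was -0.82. Krt78, another suprabasal keratin, stood at 3240 and 1843 CPM, and Krt13 and Krt4, used by the selection, at 80461 against 54342 CPM and 44276 against 30860 CPM.

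Mt3, a metal-binding metallothionein, had a median of 4.08 UMIs per 10000 UMIs in unwounded spots and 0 at day 4, and 34 unwounded spots lay above the highest day 4 one. It stood at 578 and 20.9 CPM, 27.6-fold lower, and was low in the other spots too, by 4.54 on the log2 scale. The related Mt4, which marks squamous epithelium, stood at 4468 and 4757 CPM, and Mt1 was 2.23-fold higher. After thinning to 1000 UMIs, Mt3 was seen in 45% of unwounded and 3.33% of day 4 members, against 83.3% and 18.3% unthinned, and in 18.4% and 1.64% of the other spots.

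Slurp1 and Slurp2, secreted ligands of nicotinic acetylcholine receptors on keratinocytes, had 108 and 115 UMIs unwounded and 6 and 3 at day 4, 19.1-fold and 40.6-fold lower (log2 interval for Slurp2 -7.64 to -3.76). They were uneven in the unwounded section: Slurp1 had UMIs in 24 and Slurp2 in 22 of the 60 spots, and from the unwounded spots above the median array row alone the log2 ratios were -1.42 and -2.83, against -4.25 and -5.34 from all. Serpinb3c, a clade B serpin that blocks cysteine proteases, had 360 and 19 UMIs, 20.1-fold lower, whereas its neighbours Serpinb3a and Serpinb3b had ratios of 0.592 and 0.749. These serpins are close copies, so how reads were split among them is uncertain. Of the 9 measured members of the list of stefins and clade B serpins 0 were higher and 1 was lower. The list holds only part of the family, and of all 11 measured Serpinb genes 0 were higher and 3 lower. Over all measured genes 2.74% were lower. Lyg1, a lysozyme-like protein, was 10.6-fold lower with 1000 and 100 UMIs and medians of 5.53 and 0 per 10000 UMIs.

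Barrier lipid genes mostly had ratios below 1, and few passed 2-fold. Of 15 measured 2 were lower and 0 higher, with a median of -0.46. Alox15, a lipoxygenase that oxidises arachidonic and linoleic acid, had 136 and 4 UMIs, 167 and 4.64 CPM (log2 -5.17, -7.07 to -3.78), and was detected in 32 unwounded and 2 day 4 spots. Aloxe3, which acts in the epidermal lipoxygenase pathway, was 2.08-fold lower. Abca12, a lipid transporter of keratinocytes, and the fatty acid elongase Elovl4 had ratios of 0.548 and 0.62. The abundant fatty acid binding protein Fabp5 went the other way within 2-fold, at 4869 CPM unwounded and 6800 CPM at day 4. Summed over the list, the genes stood at 8348 CPM unwounded and 9106 CPM at day 4.

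Chil4, a chitinase-like protein, and Ada, adenosine deaminase, were among the most abundant transcripts that were lower. Chil4 ran from 1.46 to 417 UMIs per 10000 UMIs unwounded (median 40.1) and from 0 to 65.1 at day 4 (median 2.08), and stood at 6336 and 1143 CPM, 5.54-fold lower. It was detected in all 60 unwounded and 42 day 4 spots, and 27 day 4 spots lay below the lowest unwounded one. From the unwounded spots above the median array row alone its log2 ratio was -0.46. With both sets at the same score the log2 ratios were -2.09 for Chil4, -5.22 for Mt3, -3.36 for Slurp1, -3.61 for Serpinb3c, -5.02 for Alox15 and -2.36 for Lyg1, all past 2-fold. Ada stood at 8437 and 2849 CPM, 2.96-fold lower, with medians of 68.2 and 13.0 per 10000 UMIs. Its log2 ratio of -1.57 became -0.83 at the same score and -0.48 from the day 4 spots above their median array row, so it fell short of 2-fold in both.

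The epidermal differentiation complex, taken as chr3:90511034-93564645 from S100a1 to S100a10 in GRCm38.p6, held 47 measured genes. Its families went different ways. The 19 Lce genes, late cornified envelope proteins, all had ratios below 1 with a median log2 of -0.75, and 5 passed 2-fold: Lce1j, Lce1k, Lce1l, Lce3c and Lce3d. At the same score in both sets Lce3c (-0.67) and Lce1j (-0.80) fell short of 2-fold, and Lce3d (-0.77) did from the unwounded spots above the median array row. Lce3c ran from 5.13 to 218 UMIs per 10000 UMIs unwounded (median 46.7) and from 0 to 63.1 at day 4 (median 7.30). Lce genes are close copies, so how reads were split between neighbours is uncertain, as it is for Sprr2 genes. The 9 Sprr genes, small proline-rich envelope proteins, had a median of 0.01, with Sprr2d and Sprr2f higher and Sprr2i and the pseudogene Sprr2j-ps lower. Sprr2d stood at 158 and 27.0 CPM, a log2 ratio of 2.55 that became 0.93 at the same score and 0.85 from the day 4 spots above their median array row, short of 2-fold. Sprr2f had 61 and 0 UMIs, at least 19.2-fold higher against a floor of 3 UMIs. Sprr3 and Sprr1a, the abundant members, stood at 8497 and 4548 CPM at day 4 against 8432 and 3646 CPM unwounded.

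Of the 11 S100 genes in the complex 4 were higher: S100a8, S100a9, S100a6 (2.55-fold) and S100a11 (2.17-fold). S100a14 and S100a16, which are typical of epithelium, had log2 ratios of 0.03 and -0.34. Of the 3 measured genes that fuse an S100 domain to repeats, Rptn, repetin, was 2.64-fold lower at 18688 and 7090 CPM, Hrnr, hornerin, 2.83-fold lower at 933 and 330 CPM, and Flg, filaggrin, 9.92-fold higher with 8 and 84 UMIs. Rptn ran from 23.6 to 441 UMIs per 10000 UMIs unwounded and from 0 to 213 at day 4, with 32 day 4 spots below the lowest unwounded one. Lor, loricrin, a main protein of the cornified envelope, stood at 33671 and 22449 CPM, a log2 ratio of -0.58. At the same score in both sets the log2 ratio of Rptn was -0.64 and that of Hrnr -0.81, both short of 2-fold, and from the unwounded spots above the median array row that of Hrnr was -0.17.

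**Figure D3:**
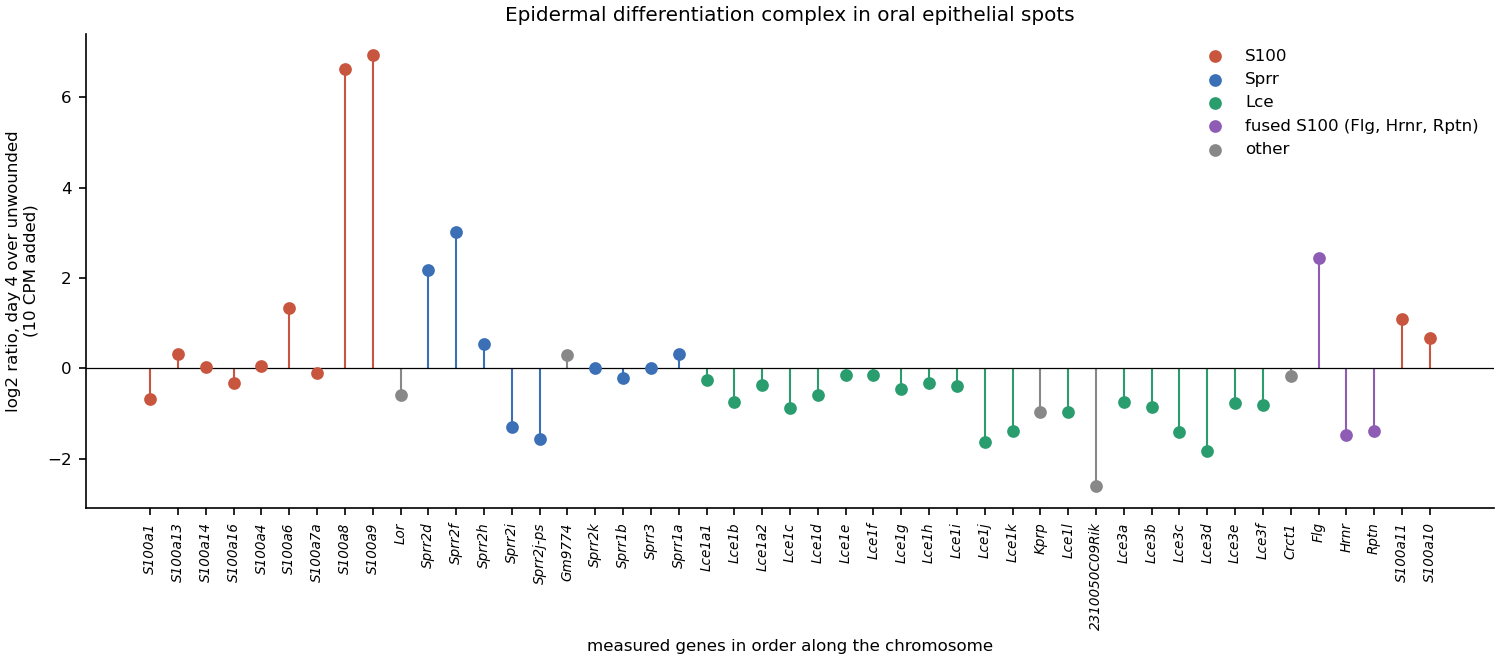
Log2 ratio of day 4 over unwounded epithelial spots, with 10 CPM added to both, for the 47 measured genes of the epidermal differentiation complex in order along the chromosome, coloured by family. All 19 Lce genes lie below 0, while S100a8 and S100a9 stand at 6.63 and 6.93.

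Few genes of cell contact and housekeeping lists passed 2-fold, and few did over all measured genes, of which 8.8% were higher and 2.74% lower. Of 16 measured desmosome and adhesion genes 0 were higher and 2 lower, the desmosomal cadherins Dsc1 (2.49-fold) and Dsg1b (2.04-fold), which mark upper layers. The basal Dsg3 stood at 390 CPM at day 4 and 222 CPM unwounded. None of 18 nuclear genes of the respiratory chain and none of 13 glycolysis and hypoxia genes passed 2-fold, with list medians of 0.20 and 0.41. Of the 13 measured desquamation proteases and inhibitors 0 passed 2-fold, 11 had ratios below 1 and the median was -0.19, Klk10 and Spink5 among them at 1836 against 1937 CPM and 695 against 793 CPM. Of 3 measured interferon response genes 2 were lower, Isg15 (18.6 and 46.7 CPM) and Ifi27l2a (90.5 and 251 CPM). In the redox list 2 of 17 were higher, Mt1 and the aldo-keto reductase Akr1b8 (55.7 and 6.14 CPM).

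Notch signalling, which drives keratinocytes out of the basal layer, had 2 of 15 list members higher, the ligand Jag2 (2.52-fold) and the target Hes1 (2.62-fold), where 8.8% of all genes were higher. The list median was 0.18 beside 0.21 for all genes, and the receptor Notch1 stood at 59.2 CPM at day 4 and 44.2 CPM unwounded. Among oral transcription factors, Foxe1 was 2.17-fold higher and Pax9, a factor of oral epithelium, 2.01-fold lower. Pax9 stood at 103 CPM at day 4 and 208 CPM unwounded, and Pitx1 at 384 CPM at day 4 and 324 CPM unwounded. The study's title names Gas6 and its receptor Axl. Gas6 had 47 and 83 UMIs, 57.8 and 96.3 CPM (log2 0.74, 0.20 to 1.29), and Axl 38.1 and 48.7 CPM (0.36, -0.35 to 1.07), both below 2-fold. Gas6 ran from 0 to 8.65 UMIs per 10000 UMIs unwounded and from 0 to 9.88 at day 4, so the spots overlapped. Over the settings tried Gas6 ranged from 0.15 to 1.32 and Axl from -0.20 to 0.88. Among spots with under 0.2% fibroblast markers the log2 ratio of Gas6 was 0.15, and under TMM it was 0.42. Unwounded and at day 4, in that order, Tyro3, a related receptor, stood at 35.6 and 30.2 CPM. In the same order Pros1, a second ligand, had 3 and 23 UMIs and Mertk 0 and 2 UMIs.

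**Figure D4:**
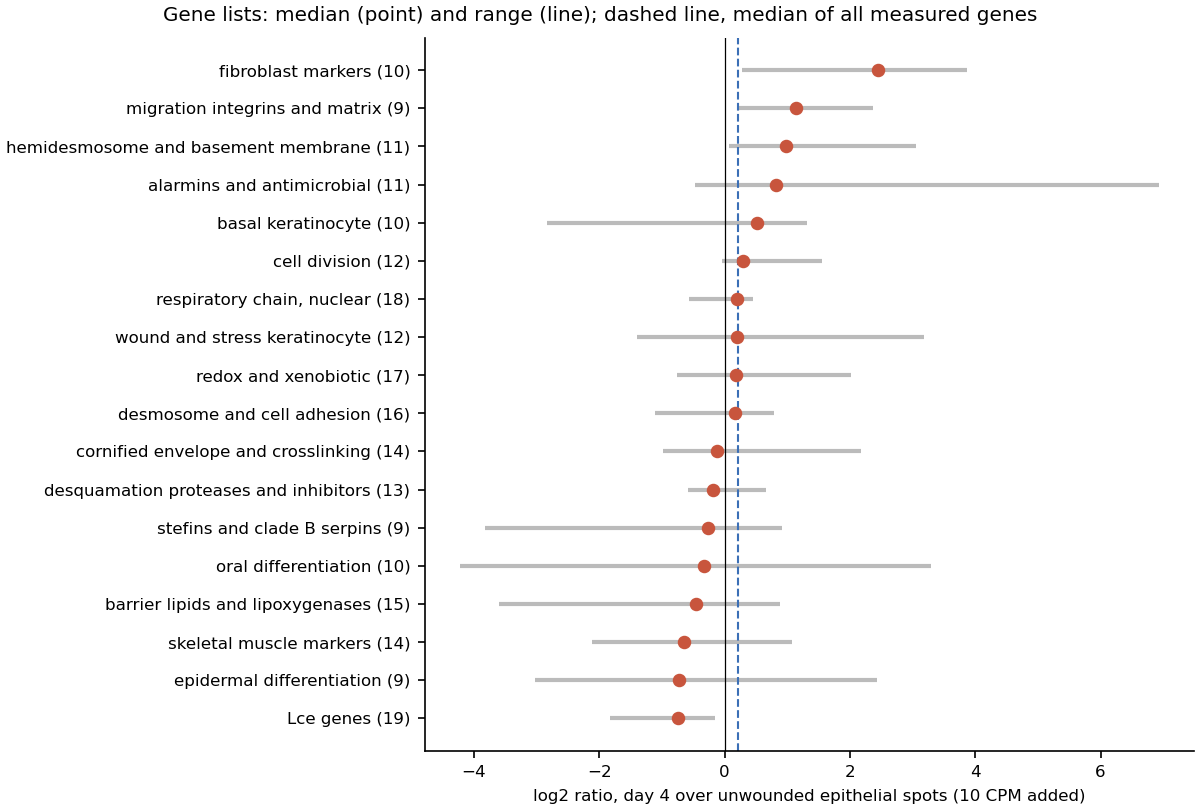
Median (point) and range (line) of log2 ratios, day 4 over unwounded epithelial spots with 10 CPM added, for 18 gene lists, with the number of measured genes in brackets and a dashed line at 0.21, the median of all measured genes. Fibroblast markers (2.45), migration (1.14) and hemidesmosome genes (0.99) stand highest and Lce genes (-0.75) lowest.

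The day 4 members differed among themselves in their share of Krt5 and Krt14. In 25 of them Krt5 and Krt14 made up less than 5% of the 4 keratins, in 25 from 5 to 25% and in 10 at least 25%, a level that 0 of 60 unwounded spots reached. The share is built from the selecting keratins, the unwounded members had to reach a higher score, and other unwounded spots reached up to 42.7%, so this is a description of the choice as well. These bounds were chosen after the values were seen. Krt17 stood at 37.2, 148 and 3436 CPM in the 3 ranges, Krt16 at 210, 1898 and 10280 CPM, Anxa1 at 442, 715 and 6148 CPM and S100a8 at 534, 2359 and 5880 CPM. In the same order Krt13 stood at 72154, 44133 and 20310 CPM, Rptn at 10765, 4169 and 1213 CPM and Chil4 at 1407, 1404 and 59.5 CPM. Not all differentiation genes fell in this order. Sprr1a stood at 3793, 2169 and 9947 CPM, Sprr3 at 10634, 5729 and 6582 CPM and Mal at 63.5, 33.8 and 725 CPM. Gas6 stood at 96.3, 156 and 11.9 CPM, the last from 2 UMIs. The keratins that define the ranges are in the score, so the order of Krt13 follows in part from the choice.

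Of those 10 spots 5 formed 1 patch, the richest in Krt5 and Krt14 among patches of at least 5 spots, with 135156 UMIs. Krt17 had 23.4, 32.4, 34.1, 39.8 and 36 UMIs per 10000 UMIs in its 5 spots. The highest unwounded member had 8.81, and the highest of the other unwounded spots had 20.8. The patch held 15.7% of the UMIs of the day 4 members but 37.8% of those in wound and stress genes, 35.6% of those in hemidesmosome genes and 4.67% of those in fibroblast markers. Krt17 stood at 3411 CPM in the patch and 233 CPM in the other 55 members, the calcium-binding S100a6 at 7687 and 697 CPM, and Krt6a at 19947 and 3978 CPM. Mal, a membrane raft protein of differentiating oral epithelium, stood at 799 and 70.2 CPM and Il1rn, the interleukin 1 receptor antagonist, at 355 and 60.6 CPM. Chil4 stood at 7.40 and 1354 CPM, Ada at 59.2 and 3368 CPM, Mt4 at 141 and 5616 CPM and the detoxifying aldehyde dehydrogenase Aldh3a1 at 22.2 and 2233 CPM.

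Without the patch 270 genes were higher and 100 lower, 299 of the 373 and 90 of the 116 genes counted with it still passed 2-fold where no UMI minimum was asked for, and the log2 ratios were 1.71 for Krt17, 0.03 for Krt16 and 7.41 for S100a8. The 8 other tissue spots that touch the patch held Krt17 at 3145 CPM and Krt16 at 7299 CPM, so these transcripts did not stop at the edge of the members. Fibroblast markers reached at most 0.143% of UMIs and the 8 neutrophil markers at most 0.0239% in a spot of the patch. Mt3, Lyg1, Serpinb3c and Krt24 were low in all 4 day 4 patches of at least 5 spots. The highest values were 36.3 CPM for Mt3, 380 CPM for Lyg1 and 21.8 CPM for Serpinb3c, against 578, 1229 and 442 CPM over the unwounded members.

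**Figure D5:**
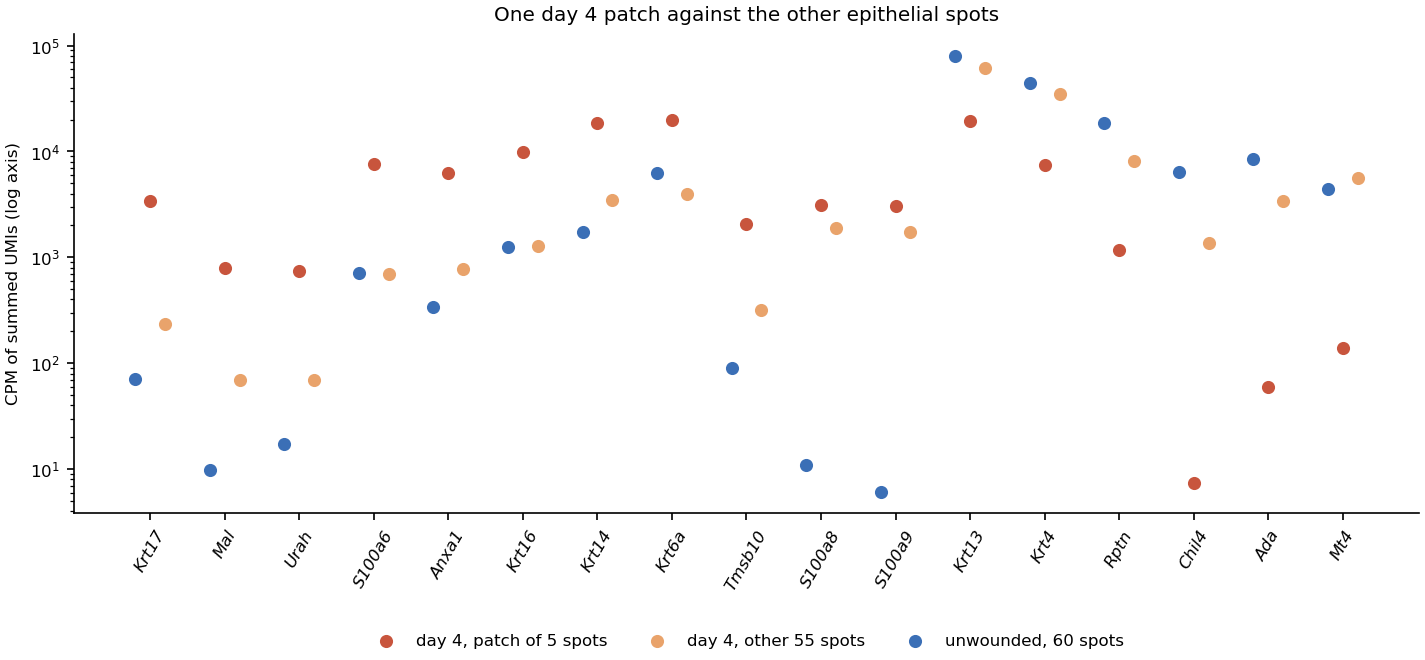
CPM of summed UMIs, on a log axis, of 17 genes in the day 4 patch of 5 spots (red), the other 55 day 4 epithelial spots (orange) and the 60 unwounded epithelial spots (blue). Krt17 stands at 3411, 233 and 71.3 CPM, while Chil4 stands at 7.40, 1354 and 6336 CPM.

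Against the other spots of the same section the members were, by the way they were chosen, rich in epithelial genes. In the unwounded section 1378 of 9214 genes (15%) were at least 2-fold higher in the members than in the other 463 spots, and at day 4 1341 of 7060 (19%) than in the other 305. The late envelope genes Lce1h, Lce1i and Lce1l were among those with high ratios in both sections, at log2 3.92, 3.77 and 3.87 unwounded and 5.48, 5.46 and 5.42 at day 4. The other unwounded spots were richer in keratins than the other day 4 spots, with a median score of 2.43% against 0.34%, and their median UMIs were 14082 and 5645.

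The day 4 ratio in the members was set against the same ratio in the other spots. Of 4221 genes 557 (13.2%) had a ratio at least 2-fold above that of the other spots and 112 (2.65%) at least 2-fold below. Genes that stayed near level in the members while standing lower elsewhere led the first group: Ces1h, a carboxylesterase, had log2 ratios of 0.18 in the members and -3.29 in the other spots, Mt4 0.09 and -2.68, and Padi1, a citrullinating enzyme of differentiating keratinocytes, -0.15 and -2.93. In the second group Sprr2d had 2.55 and 6.16, Il1rn -0.33 and 1.82, Tnc 2.44 and 4.51 and Muc5b 5.85 and 7.92. Gas6 had log2 ratios of 0.74 in the members and -0.42 in the other spots, a difference of 1.16 (0.58 to 1.74). The other spots also differed in median score, 2.43% unwounded and 0.34% at day 4. The part of that, and of fibroblasts, in the Gas6 difference was not tested. The intervals hold counting error of 1 section per group only. Among 4151 genes measured in both, 121 were 2-fold higher in members and other spots alike, which is 34.0% of the 356 higher in members and 54.8% of the 221 higher in the other spots, and 61 were lower in both.

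Across the alternatives tried, 10 of the 15 highest and 12 of the 15 lowest genes stayed past 2-fold in the same direction in all 15 settings of spots and scaling. S100a8 ranged from 6.10 to 8.48 on the log2 scale, Muc5b from 4.64 to 8.71 and Mt3 from -6.12 to -4.15. The exceptions were Krt17, Col1a2, Col3a1, Eln and Tmsb10 among the highest and Krt10, Lce3d and Lce1j among the lowest, each of which fell short of 2-fold in 1 or 2 settings.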

How the data were processed

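Spot-by-gene UMI counts were deposited by the authors as 10x Visium matrices, per the file headers from Space Ranger 1.3.1, with mm10 and Seurat listed in the submitters' processing notes. The counts were not normalized. Counts of the 60 members of each section were summed, divided by the total and given as CPM, with exact 95% Poisson intervals for sums and exact conditional intervals for ratios. These cover counting error only. Spots of a section are not replicates, and with 1 section per group no test was made. A gene counted as higher or lower at 2-fold with at least 50 UMIs over both sets. Detection in spots was counted with all UMIs and again with each spot thinned to 1000. The files hold 32285 genes, and for 38 symbols that several genes share the gene listed first was kept.

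The members, gene lists and tests were chosen with earlier results of these data known. Of 543 genes in 42 lists 533 matched. Named genes were the selecting keratins and the Gas6 and Axl family, up to 6 members of each list by size of ratio and any at 0 in a set, the 15 highest and 15 lowest ratios at 100 UMIs with 1 sign in 4 pairings of spots above or below the median array row, and the genes most different from the other spots. The 15 highest and 15 lowest were ranked without the selecting keratins, mitochondrial, haemoglobin, Gm and Rik genes, Xist and Y-linked genes. Other genes named from the lists (such as Ada, Anxa1, Aldh3a1, Slpi, Defb4, Trp63, Mki67, Top2a, Lamb3, Plec, Dst, Fabp5, Klk10, Spink5, Notch1 and single cell type markers), Gm42418, Malat1 and the patch were chosen after their values were seen. Python 3.11.15, numpy 2.4.6, pandas 2.3.3, scipy 1.17.1, matplotlib 3.10.9, R 4.3.3 and edgeR 4.0.16 (TMM only) were used, and the steps were tested on simulated data. Doublets were not called, since a spot can hold several cells. A gene among the highest ratios is not reported here.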

Additional observations from a re-analysis of the deposited data

Results flagged for a closer look

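In 5 of 4151 genes measured in both, the epithelial members and the other spots of the same sections went opposite ways by at least 2-fold between unwounded and day 4 mucosa. The other spots also differed in keratin content, with a median score of 2.43% unwounded and 0.34% at day 4. The part of that difference in these ratios was not tested. With 1 section per group the difference was not tested. The day 4 over unwounded log2 ratio in the members exceeded that in the other spots by 2.91 for Etnk2, an ethanolamine kinase, by 2.28 for P2ry1, a purinergic receptor, by 2.57 for Foxe1, a forkhead transcription factor, and by 2.98 for Aldh3b2, an aldehyde dehydrogenase. For Zfp36, which promotes decay of AU-rich mRNAs, the difference was -2.27.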

How the results depend on the processing

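Of the summary counts, 373 genes higher and 116 lower at day 4, the following settings moved 1 or both by over 1.5 times. With the 30 highest spots the counts were 198 and 71, and higher genes numbered 77 at the same score in both sections, 208 from day 4 spots up to their median row and 185 among spots with under 0.2% fibroblast markers. Lower genes numbered 235 from day 4 spots above their median row. Counts were 188 and 258 under TMM, 213 and 211 without mitochondrial and the 50 most abundant genes in the total, 1103 and 217 at 20 UMIs, 48 and 44 at 200 UMIs, 1090 and 319 at 1.5-fold and 123 and 33 at 3-fold, and the mean of spot CPM gave 670 higher. Without other spots that touch a member, 192 genes in place of 112 had a ratio 2-fold below that of the other spots. The direction turned at the same score for Krt17 (-0.54), Krt16 (-2.22), Krt14 (-0.15), Krt5 (-0.56), Krt6a (-1.30), Krt4 (0.05), Axl (-0.18) and the muscle actin Acta1 (-0.69), and with the 30 highest spots for Krt16 (-0.31). The cause was not tested. The fibroblast limit and leaving out the patch were chosen after seeing the data. Restricting to spots with fewer Krt13 and Krt4 than Krt5 and Krt14 gave no value, since 0 unwounded spots qualified. No paired analysis was possible because each group holds 1 section. Each group is 1 section, the score limits differ, and genes with few UMIs have wide intervals.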
